A study of Mus musculus with 12 samples.

Results

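The Alg genes encode the enzymes that build the sugar precursor of N-linked glycans. The 10 described here are Alg1, Alg2, Alg3, Alg5, Alg6, Alg8, Alg9, Alg11, Alg12 and Alg14. They were chosen by mouse symbol among the 30803 Ensembl genes of the WT and GSH table because Alg genes tended to be lower in GSH, so their GSH against WT values are given as a description, with no test. All 10 were also listed in the table of 17558 symbols that holds the Ctrl and Cas9 libraries. The study sequenced messenger RNA of 4T1, a mouse mammary carcinoma line from a BALB/c animal, and its labels give 4 genotypes, WT, GSH, Ctrl and Cas9, each grown in culture in DMEM with serum. The labels expand neither GSH nor Ctrl, and no Cas9 target is named, so what separates GSH from WT cells, or Cas9 from Ctrl cells, beyond these names is not known here. Values of 3 WT, 3 GSH, 3 Cas9 and 1 Ctrl library (Ctrl 3) were used, and 2 further Ctrl samples were not analysed here. Nothing states that replicates were independent cultures, so p-values measure only the spread between these libraries, which may be technical.

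The precursor grows one sugar at a time on dolichol, a long lipid of the endoplasmic reticulum membrane. The early sugars, N-acetylglucosamine and the first mannoses, are added on the cytosolic face. The lipid-linked glycan is then turned into the lumen, where further mannoses and finally glucoses are added from dolichol-phosphate donors, and oligosaccharyltransferase moves the finished glycan onto asparagines of new proteins. Inherited loss of single steps causes congenital disorders of glycosylation.

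Levels are in FPKM (fragments per kilobase, scaled to library depth). Library totals, read from the steps in which the deposited FPKM values move, were 18531444 to 30168737 reads in WT and GSH. The same reading gave 33152215 to 39201544 in Ctrl and Cas9, but there it rested on 35 to 41 genes per library and only 13.3 to 14.2% of values came out as whole reads, so those totals are rough. Every one of the 8 epithelial markers examined was above 0 in every library, and together they stood at 1950 to 2115 FPKM in WT and GSH and at 1819 to 2561 FPKM in Ctrl and Cas9. Leukocyte markers summed to 18.2 to 27.2 FPKM in WT and GSH, with 1 to 4 of 11 at 0, but to 1878 to 3543 FPKM in Ctrl and Cas9, and fibroblast markers to 3.18 to 26.9 FPKM against 349 to 1115 FPKM, a mixture that the culture protocol does not describe. In bulk RNA, fewer cells of a type and less RNA per cell cannot be told apart. Odorant-binding, major urinary and related secretory genes separated the libraries in another way. They summed to 345 FPKM in WT 3, 488 in GSH 2 and 192 in GSH 3, against 1.63 to 11.4 FPKM in WT 1, WT 2 and GSH 1. The mitochondrially encoded genes took 20.5 to 21.7% of all FPKM in WT and 14.7 to 15.9% in GSH.

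Across the family the GSH levels were slightly lower. The 10 members together took 410, 406 and 402 RPM (a share of all reads recovered from the FPKM steps) in WT 1 to 3 and 372, 370 and 367 RPM in GSH 1 to 3, without overlap. For 6 members (Alg2, Alg3, Alg5, Alg6, Alg8 and Alg14) every GSH library lay below every WT library, for 4 (Alg1, Alg9, Alg11 and Alg12) the groups overlapped, and for 0 every GSH library lay above. Of the 12283 genes tested, 23.5% had every GSH library below every WT library and 29% had every GSH library above. Since the members were picked on this contrast, nothing is read from these counts. The median log2 difference over the members, GSH minus WT on the log2(FPKM + 1) scale, was -0.15, beside 0.021 over all tested genes. Member differences ran from -0.19 to 0.0022. By mean, 9 of 10 were below 0 (45.9% of tested genes were). Alg1, at 0.0022, lay close to 0 and changed sign under several alternatives. Among these were relative log expression scaling and mitochondrial genes left out of the total, with 10 of 10 below 0. The median over all tested genes was then 0.005 and -0.033. The member median against the WT mean was 0.01, 0.01 and 0.00 in WT 1 to 3 and -0.15, -0.14 and -0.14 in GSH 1 to 3. The libraries were also split by a cut on the summed secretory genes. The median log2 difference over the members was -0.14 both within the libraries above the cut (WT 3, GSH 2 and GSH 3) and within those below it (WT 1, WT 2 and GSH 1).

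**Figure D1:**
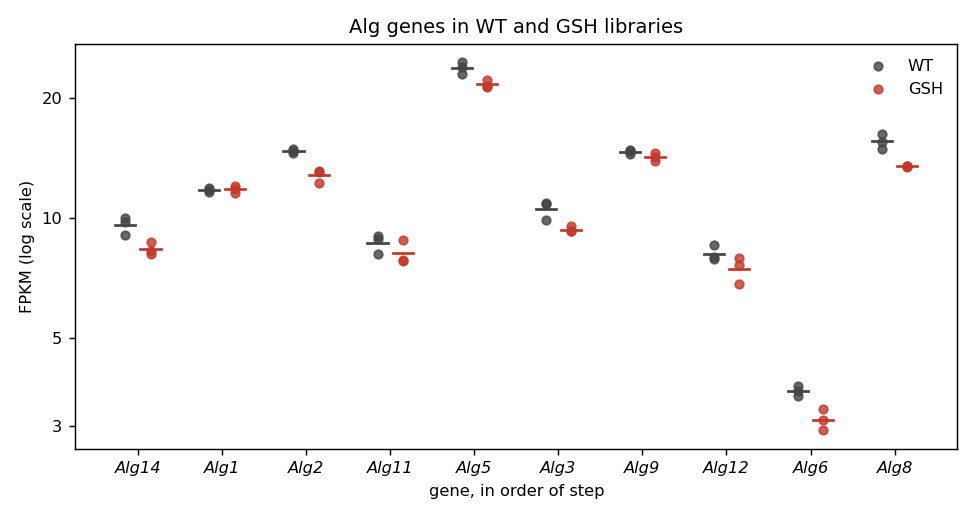
FPKM of each Alg gene (log axis) in the 3 WT and 3 GSH libraries, grouped by step, with points for libraries and short lines for group means. Alg5 stands highest and Alg6 lowest in both groups, and the GSH points of Alg2, Alg3, Alg5, Alg6, Alg8 and Alg14 all lie below the WT points.

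On the cytosolic face, Alg14 anchors the transferase that adds the second N-acetylglucosamine. It stood at 9.96, 9.06 and 9.76 FPKM in WT 1 to 3 and at 8.12, 8.67 and 8.24 FPKM in GSH 1 to 3, a log2 difference of -0.18. All 3 GSH libraries were below the lowest WT library, WT 2. Alg1, which adds the first mannose, was level, at 11.7, 11.6 and 11.9 FPKM in WT and 11.5, 12 and 11.8 FPKM in GSH. Its group means were 11.7 ± 0.139 and 11.7 ± 0.241 FPKM (SD, n = 3 each), and GSH 2 was the highest of the 6 libraries. Alg2, the transferase of the next mannoses, stood at 14.9, 14.5 and 14.7 FPKM in WT and at 12.2, 13 and 13.1 FPKM in GSH, a log2 difference of -0.19. The gap between the groups was wider than the range within either, and GSH 1 was lowest. Alg11, which completes the cytosolic mannoses, stood at 8.83, 9.01 and 8.13 FPKM in WT and at 8.79, 7.83 and 7.79 FPKM in GSH. Its groups overlapped, as GSH 1 lay among the WT libraries.

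Alg5 makes dolichol-phosphate glucose, the donor for the glucosyl steps in the lumen, and had the highest level of the family per length. It stood at 24.5, 22.9 and 23.9 FPKM in WT 1 to 3 and at 22.1, 21.4 and 21.3 FPKM in GSH 1 to 3, a log2 difference of -0.13. The groups did not overlap, with GSH 1 close under WT 2.

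In the lumen, Alg3 adds the first mannose taken from dolichol-phosphate mannose. It stood at 9.89, 10.8 and 10.9 FPKM in WT and at 9.24, 9.24 and 9.52 FPKM in GSH, a log2 difference of -0.16. WT 1 was the lowest WT library and still above GSH 3, the highest GSH library. Alg9, which adds mannoses before and after the Alg12 step, stood at 14.4, 14.8 and 14.7 FPKM in WT and at 14.2, 14.5 and 13.9 FPKM in GSH. GSH 2 just reached the WT range, and the log2 difference was -0.04. Alg12, the mannosyltransferase that acts between the additions of Alg9, stood at 7.95, 8.53 and 7.86 FPKM in WT and at 6.8, 7.91 and 7.6 FPKM in GSH. GSH 2 overlapped the WT libraries, and the group means were 8.11 ± 0.367 and 7.44 ± 0.575 FPKM (SD, n = 3 each).

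The glucosyltransferases act last. Alg6, which adds the first glucose, had the lowest level per length, at 3.79, 3.68 and 3.57 FPKM in WT 1 to 3 and 3.31, 2.93 and 3.11 FPKM in GSH 1 to 3. All GSH libraries were below all WT libraries, and the difference of the means, -15.3%, was the widest of the family in percent. Alg8, which adds the second glucose, stood at 15.5, 16.2 and 14.9 FPKM in WT and at 13.5, 13.5 and 13.4 FPKM in GSH. The GSH libraries were nearly identical, with a mean of 13.5 ± 0.0333 FPKM (SD, n = 3) against 15.5 ± 0.678 FPKM in WT.

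**Figure D2:**
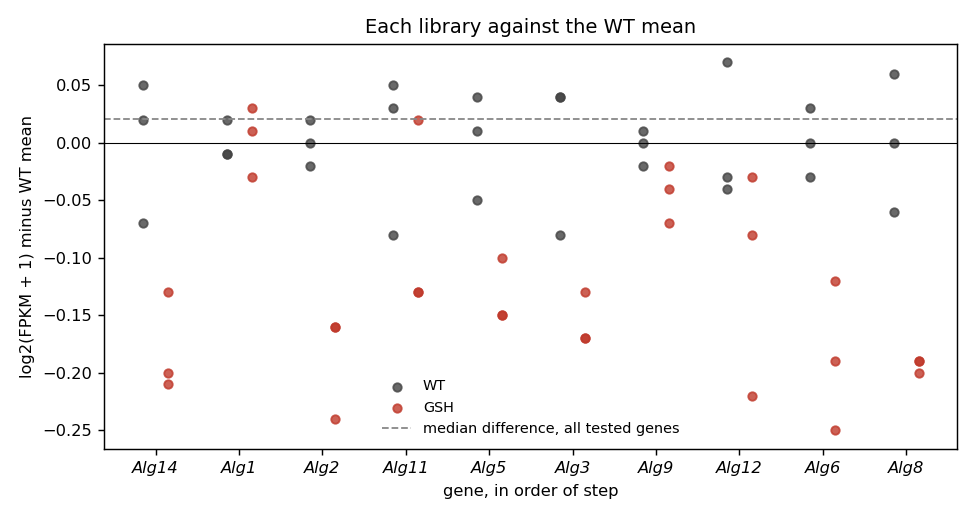
Each library's log2(FPKM + 1) minus the WT mean of the same gene, for WT and GSH libraries, with the median difference of all tested genes as a dashed line at 0.021. The GSH points lie below 0 for most members, while Alg1, Alg9, Alg11 and Alg12 each have a GSH point within the WT range.

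Single member values rested on 295 to 2485 recovered reads. The standard deviation between libraries was 1.18 to 5.37% of the mean in WT and 0.248 to 7.74% in GSH, where counting error alone would give 2.3 to 5.14% and 2.34 to 5.31%. In WT the members ranked by FPKM as Alg5, Alg8, Alg2, Alg9, Alg1, Alg3, Alg14, Alg11, Alg12 and Alg6. Alg2 and Alg9, Alg3 and Alg14, and Alg11 and Alg12 had overlapping ranges and are not ordered by these data. In GSH, Alg9 stood above Alg8 and Alg2 without overlap between neighbours, while Alg14, Alg11 and Alg12 overlapped in turn. The members lay at moderate levels, with the median member at percentile 62.7 to 64 of the tested genes in WT and 60.9 to 61.6 in GSH.

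Some of these genes share their exons or their start region with neighbours, as GENCODE M21 annotates them. Exons of Alg1 overlap those of Eef2kmt over 17.6% of their length, exons of Alg9 those of 1110032A03Rik over 12.9%, and exons of Alg3 those of Eef1akmt4, Vwa5b2 and Gm49333 over 8.7%. Eef2kmt (5.55 and 5.1 FPKM in WT and GSH) and Eef1akmt4 (1.75 and 1.95 FPKM) did not pass limma's test, with adjusted p of 0.154 and 0.312. Every GSH library lay below every WT library for Eef2kmt, and with mitochondrial genes left out of the total it was called lower (adjusted p = 0.0432, over a range of 0.0432 to 0.362). Vwa5b2, 1110032A03Rik and Atp7b, which starts 416 bases from Alg11, were below the filter on low values. The neighbours that overlap Alg1, Alg3 and Alg9 lie on the opposite strand, and the sources used here do not state strand-specific counting, so reads of the shared parts cannot be told apart and these levels are uncertain to that degree. Alg2 and Sec61b, a subunit of the translocon that threads proteins into the endoplasmic reticulum, start 325 bases apart on opposite strands. Sec61b rose from 22.2 to 25.2 FPKM (log2 change 0.18, limma adjusted p = 0.0328), opposite to the lower Alg2. That call ended without WT 1 (adjusted p = 0.0778), GSH 1 (0.0863), GSH 2 (0.0728) or GSH 3 (0.0781), with relative log expression scaling (0.059) and with mitochondrial genes left out of the total (0.0803), and over the alternative settings its adjusted p ran from 0.0177 to 0.0864. Alg5 and Exosc8, a subunit of the RNA exosome, start 146 bases apart on opposite strands. Exosc8 fell from 25.7 to 21.6 FPKM (log2 change -0.24, limma adjusted p = 0.00361).

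Alg12 and Creld2, a chaperone-like protein of the endoplasmic reticulum, also start back to back, 328 bases apart in GENCODE. Creld2 fell from 63.2 to 57.6 FPKM (log2 change -0.13, limma adjusted p = 0.0218), a call that ended without WT 1 (adjusted p = 0.0563), WT 3 (0.0622) or GSH 3 (0.0505), with a range over alternatives of 0.00516 to 0.0622. The shared region holds the letters of the endoplasmic reticulum stress element (ERSE), CCAAT and CCACG with 9 bases of any kind between them, which the stress-activated factor ATF6 is known to bind together with NF-Y. The 250 bases before the Alg12 start are shown because this is the one match among the members, with the fixed letters of the match in capitals (RefSeq, GRCm38.p6, chr15:88819319-88819568, minus strand, 5′ to 3′).
Alg12: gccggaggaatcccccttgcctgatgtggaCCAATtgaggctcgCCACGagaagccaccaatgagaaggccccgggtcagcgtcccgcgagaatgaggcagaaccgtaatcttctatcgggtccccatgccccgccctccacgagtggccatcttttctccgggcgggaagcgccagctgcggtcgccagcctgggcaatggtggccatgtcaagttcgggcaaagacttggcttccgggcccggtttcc

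RefSeq windows of 300 bases, from 250 before to 50 after a gene start, were matched by symbol for 8 of the 10 members; Alg2 and Alg11 had none. Both strands were searched. Of 32851 windows in all, 39 (0.119%) held the ERSE letters, and among the 8 members Alg12 held them. The first letter lay 220 bases before the Alg12 start, and the same 19 bases, read on the other strand, lay in the Creld2 window. Of 5 other motifs searched, ERSE-II (ATTGG and CCACG with 1 base between) was in 0.0365% of windows and the core of the unfolded protein response element (TGACG then TGG) in 0.676%, and 0 of the 8 members held either. The E-box CACGTG was in 7.15% of windows and in that of Alg1. CCAAT alone, which every ERSE contains, was in 37.4% of windows and in those of Alg3, Alg9, Alg12 and Alg14, and CCACG alone, likewise part of ERSE, in 32.8% and in those of Alg1, Alg5, Alg6 and Alg12. A match describes the letters only. Among the other genes with the ERSE letters in a window are well known chaperone genes of the endoplasmic reticulum, whose matches are shown beside that of Alg12 to compare the 9 free bases (fixed letters in capitals, written in the CCAAT direction).
Alg12: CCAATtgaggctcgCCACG
Hspa5: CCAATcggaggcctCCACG
Hsp90b1, first match: CCAATcgtgcctcaCCACG
Hsp90b1, second match: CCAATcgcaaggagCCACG
Pdia6: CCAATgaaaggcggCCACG
Calr: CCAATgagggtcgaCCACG
Canx: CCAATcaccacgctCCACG

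Besides Alg12, 14 tested genes had the ERSE letters in a window. Of these, 11 fell, 1 rose (Adcy3) and 2 did not pass in limma's test of GSH against WT, and their median log2 difference was -0.17. Over all 12283 tested genes, 16.4% were called lower and 20.6% higher. Of the called genes 55.7% were higher, against 34.1% with mitochondrial genes left out of the total. The ERSE letters were singled out of the 6 motifs after these values were seen. For tested genes with ERSE-II, 4 of 10 fell and 2 rose, for the unfolded protein response core 18 of 92 fell and 22 rose, and for the E-box, CCAAT and CCACG 17.2, 18.2 and 16.6% fell. Several of the 11 are chaperone genes already known to be lower in these libraries, so the count is no independent support. Hsp90b1, the luminal HSP90, had a log2 change of -0.35 (adjusted p = 0.00178), Hspa5, which encodes BiP, one of -0.23 (0.00302), and Pdia6, a protein disulfide isomerase, one of -0.20 (0.00546). Alg12 itself had a difference of -0.11, among the smaller of these. Without WT 1, WT 3 or GSH 3, 7 of the 14 were called lower, the calls of Dnajc3, Syvn1, Canx and Creld2 having ended in each case. With no filter on low values 7 were called too, and there those of Dnajc3, Syvn1, Canx and Calr ended. The call of Adcy3 (log2 change 0.20, adjusted p = 0.0248) ended without WT 1 (0.0617), WT 2 (0.0668), WT 3 (0.0639), GSH 2 (0.0653) or GSH 3 (0.0614), and its adjusted p ran from 0.00983 to 0.0803 over the alternatives.

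**Figure D3:**
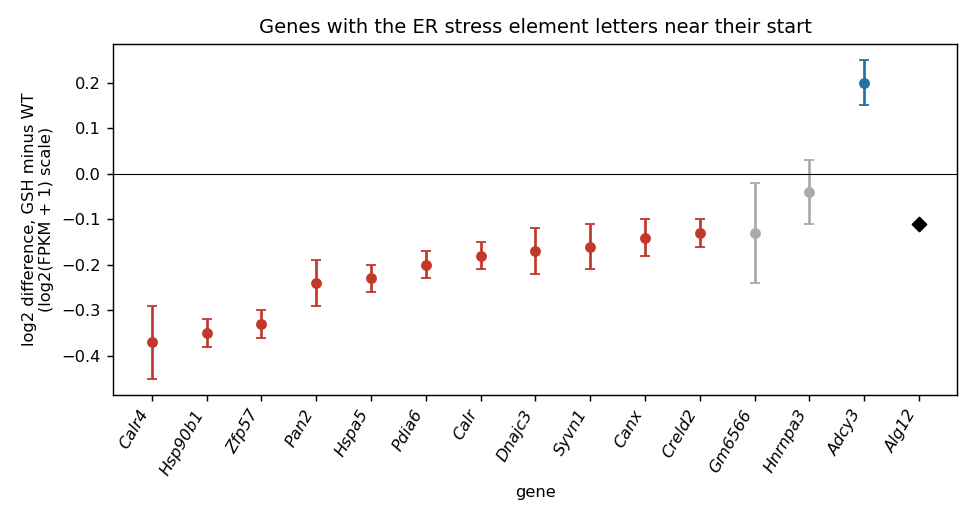
Log2 difference, GSH minus WT, of the 14 tested genes with the ERSE letters in their start window, with the standard error of limma, and of Alg12 (black diamond, no test). Red marks genes called lower, blue a gene called higher and grey those that did not pass; 11 of the 14 are red, led by Calr4 at -0.37.

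The rest of the pathway was read from gene lists of 51 genes that the choice of the Alg genes did not include. These lists too were written with earlier results of these data known, so their counts are no independent support. Of 48 tested, 22 fell (45.8%), 6 rose (12.5%) and 20 did not pass, with a median log2 difference of -0.12, where 16.4% of all tested genes fell and 20.6% rose with a median of 0.021. The lists below are read beside the same shares. The count of fallen genes was 13 without WT 1, 13 without GSH 3 and 13 with no filter on low values, and it was 26 with voom on recovered reads and 29 with mitochondrial genes left out of the total. No count is read within WT 3, GSH 2 and GSH 3 or within WT 1, WT 2 and GSH 1. Those fits leave 1 library in a group, assumed to vary like the others. There the pathway calls ended, as did nearly all calls over all genes. The count of risers fell to 1 without WT 1, 2 without WT 2 or GSH 1, and 3 without WT 3, GSH 2 or GSH 3. Of the assembly genes outside the members, Dpagt1, Alg13 and Alg10b did not pass, and their groups overlapped. Dpagt1, which starts the precursor, stood at 23.3 FPKM in WT and 21.9 in GSH, Alg13, the catalytic partner of Alg14, at 6.79 and 6.2, and Alg10b, which adds the last glucose, at 21.7 and 21.7 FPKM. Their limma adjusted p values were 0.162, 0.0959 and 0.975, and under alternatives Dpagt1, at 0.0408, and Alg13, at 0.0485, reached values under the threshold.

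Oligosaccharyltransferase, which transfers the finished glycan, had the largest share of called genes among these N-glycan lists. Of its 11 tested genes, 10 fell and 1 rose, with a median log2 difference of -0.17. Magt1, a thioredoxin-like subunit, fell from 38.5 to 32.5 FPKM (log2 change -0.24, limma adjusted p = 0.0113), and Tmem258 from 63.5 to 54.3 FPKM (-0.22, adjusted p = 0.0074). Ostc fell from 49 to 41.4 FPKM (-0.24, adjusted p = 0.014, and 0.0507 without WT 1, over a range of 0.00245 to 0.0507). The catalytic subunits Stt3a and Stt3b, added after their values were seen, fell from 136 to 117 and from 91.7 to 81.6 FPKM (adjusted p = 0.00372 and 0.00658). The riser was Ost4, a very small subunit, with a log2 change of 0.22 (adjusted p = 0.0249), and its call ended without WT 1 (0.0789), WT 2 (0.0717), GSH 2 (0.0722) or GSH 3 (0.0658), over a range of 0.00804 to 0.0789. Tusc3, the twelfth gene of the list, was not analysed here in WT and GSH.

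Genes that supply dolichol and sugars were divided. Of 5 dolichol genes, 2 fell (Dolk, Dolpp1), 1 rose (Dhdds) and 2 did not pass. Dolpp1, which recycles dolichol pyrophosphate, fell from 7.52 to 6.53 FPKM (log2 change -0.18, limma adjusted p = 0.0107). Dolk, the dolichol kinase, fell from 14.7 to 12.7 FPKM (adjusted p = 0.0288), and its call ended without WT 1 (0.0706), WT 3 (0.0597), GSH 2 (0.0798) or GSH 3 (0.0831), over a range of 0.0134 to 0.0831. Dhdds, a subunit of the enzyme that makes the dolichol chain, rose from 7.08 to 7.84 FPKM (adjusted p = 0.0321), a call that ended without WT 1 (0.0799), WT 2 (0.0898), WT 3 (0.0601), GSH 1 (0.0873) or GSH 2 (0.0836), over a range of 0.0311 to 0.156. Among 4 genes of dolichol-linked donors, Dpm1, the catalytic subunit of dolichol-phosphate mannose synthase, fell from 2.13 to 1.64 FPKM (log2 change -0.24, adjusted p = 0.0202) and the others did not pass. That call ended without WT 2 (0.063), WT 3 (0.0617), GSH 1 (0.0575) or GSH 3 (0.0565), over a range of 0.00261 to 0.0712. Of 9 tested genes of sugar nucleotide supply, 4 rose and 1 fell, with a median log2 difference of 0.11. Ugp2, which makes UDP-glucose, rose from 4.78 to 5.68 FPKM (log2 change 0.21, adjusted p = 0.0135). It passed under each of the 13 alternative settings that left more than 1 library in each group (0.0103 to 0.0469). The other 3 risers were Pmm1, whose call ended without WT 1 (0.0645), WT 2 (0.0581), GSH 1 (0.0505) or GSH 2 (0.0557), Gfpt1, without WT 1 (0.0663), WT 3 (0.0678), GSH 1 (0.0646) or GSH 3 (0.0735), and Uap1, without WT 1 (0.0592), WT 2 (0.075), WT 3 (0.057), GSH 1 (0.0641) or GSH 3 (0.087). The gene that fell was Gmppa, without a call when WT 2 (0.0735), WT 3 (0.0746), GSH 2 (0.0748) or GSH 3 (0.0774) was left out. Adjusted p of these 4 ran over the alternatives from 0.0184 to 0.0686, 0.00644 to 0.163, 0.0258 to 0.262 and 0.0128 to 0.0774. With mitochondrial genes left out of the total, the calls of Dhdds (0.156), Pmm1 (0.0686), Gfpt1 (0.163) and Uap1 (0.262) ended.

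After transfer the glycan is trimmed and read by the chaperones calnexin and calreticulin. Of 15 tested genes of this stage, 8 fell, 0 rose and 7 did not pass, with a median log2 difference of -0.13. Mogs, the glucosidase that removes the outermost glucose added in the assembly, fell from 45.3 to 40.4 FPKM (log2 change -0.16, limma adjusted p = 0.00608). Calr, calreticulin, had a log2 change of -0.18 (adjusted p = 0.00706, and 0.0619 with no filter, over a range of 0.000866 to 0.0619). Edem3, which acts in disposal of misfolded glycoproteins, fell from 11.3 to 10 FPKM (adjusted p = 0.0404), and its call ended without WT 1 (0.0907), WT 3 (0.0651), GSH 1 (0.0892), GSH 2 (0.106) or GSH 3 (0.0605), over a range of 0.0136 to 0.106.

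**Figure D4:**
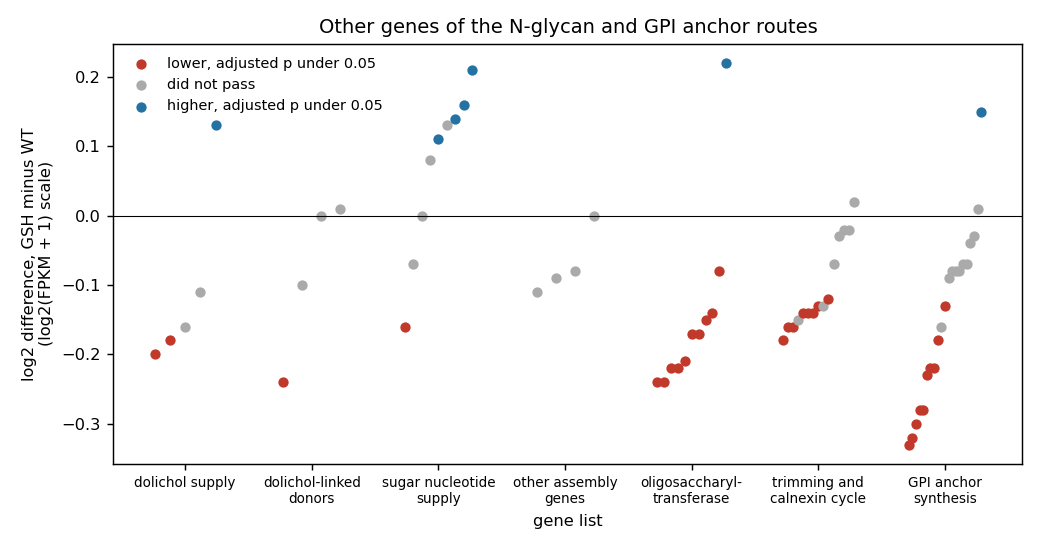
Log2 difference, GSH minus WT, of each tested gene in 6 lists of the N-glycan route and in the GPI anchor list, coloured by the limma call at an adjusted p of 0.05 (red lower, blue higher, grey did not pass). In the oligosaccharyltransferase list 10 of 11 genes are red, and in the sugar nucleotide list 4 of 9 are blue.

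The genes whose log2 levels followed the mean profile of the 10 members most closely over the 6 WT and GSH libraries were Xpnpep2 (Pearson r = 0.9996), Ltk (0.9995), Ccdc114 (0.9990), Sirt7 (0.9990) and Ankrd16 (0.9990). These are descriptions over 6 libraries that share a group difference, and every one of the 5 was lower in GSH; Sirt7 stood at 12.9 ± 0.159 FPKM in WT and 10.3 ± 0.0749 in GSH (SD, n = 3 each).

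The Ctrl and Cas9 libraries give a contrast that the choice of the members did not use, and in it the Alg genes showed no detected difference. All 10 members passed the filter, and limma called 0 of them, as it called 0 of 11407 genes (0%) with a smallest adjusted p of 1. At an unadjusted p of 0.05, 0 members and 210 genes (1.84%) passed. The median log2 difference over the members, Cas9 minus Ctrl, was -0.016, beside -0.011 over all tested genes, with 4 members above 0 and 6 below. Standard errors ran from 0.16 to 0.30, so a difference of the size seen between GSH and WT was not detectable here, and they come from the Cas9 libraries alone. Ctrl 3 lay above all Cas9 libraries for 2 members (22.5% of tested genes), below all for 2 (20.1%) and within their range for 6.

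The members above all Cas9 libraries in Ctrl 3 were Alg1 and Alg9. Alg1 stood at 11 FPKM in Ctrl 3 and at 10.4, 8.8 and 9.47 FPKM in Cas9 1 to 3 (log2 difference -0.18, SE 0.16). Alg9 stood at 7.67 FPKM in Ctrl 3 and at 6.44, 6.92 and 5.87 FPKM in Cas9 1 to 3 (-0.23, SE 0.17). It had the smallest unadjusted p of the members, 0.23 in limma. The members for which Ctrl 3 lay below all Cas9 libraries were Alg5, at 12.4 FPKM against 12.9, 12.8 and 15.1 FPKM (0.12, SE 0.16), and Alg14, at 5.99 FPKM against 7.44, 6.12 and 8.66 FPKM (0.26, SE 0.22).

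For 9 of the 10 members, levels spread further among the Cas9 libraries than among WT or GSH replicates. The exception was Alg11, with a standard deviation of 4.15% of its mean in Cas9, 5.35% in WT and 6.98% in GSH. The standard deviation of a member was 4.15 to 28.8% of its mean in Cas9 (median 12.7%), against a median of 3.84% in WT and 2.77% in GSH. How many of all tested genes spread further in Cas9 was not counted, so the wider spread is not read as particular to the members. Alg8 varied most, at 7.04, 5.27 and 3.94 FPKM in Cas9 1 to 3 and 6.97 FPKM in Ctrl 3. Alg3 stood at 6.19, 5.17 and 3.87 FPKM and at 5.13 FPKM in Ctrl 3, and Alg2 at 16.6, 14.3 and 12 FPKM and at 13.9 FPKM in Ctrl 3. For 5 of the 10 members (these 3, Alg11 and Alg12) Cas9 1 was the highest of the 4 libraries and Cas9 3 the lowest. The share of all tested genes with this order was not counted, so it is not read as a trait of the Alg genes. Alg6 ran the other way, at 1.47, 2.33 and 2.53 FPKM in Cas9 1 to 3 and 2.34 FPKM in Ctrl 3, and the other 4 members (Alg1, Alg5, Alg9 and Alg14) followed neither order. The summed leukocyte markers stood at 3543, 2442 and 1878 FPKM in Cas9 1 to 3 and 2971 in Ctrl 3. Most of that sum was Lyz2 alone, at 3048, 2001 and 1035 FPKM in Cas9 1 to 3 and 2536 in Ctrl 3. Single leukocyte markers differed in order. Cd68 (99.6, 80.6 and 77.7 FPKM in Cas9 1 to 3) and Itgam (40.8, 39.7 and 31.1) fell likewise. Ptprc (18.5, 21 and 15.9), Csf1r (112, 125 and 50.1), Cd3e (2.92, 3.11 and 1.89) and Cd8a (4.19, 4.62 and 2.66) were highest in Cas9 2. S100a8 (76.9, 63 and 239) and S100a9 (138, 103 and 425) were highest in Cas9 3. The epithelial markers stood at 1819, 2303 and 2561 FPKM in Cas9 1 to 3 and 2251 in Ctrl 3. The fibroblast markers stood at 349, 1115 and 361 FPKM and 716 in Ctrl 3, and the adipocyte markers at 55.9, 36.9 and 30 FPKM and 54.6 in Ctrl 3. The endothelial markers stood at 105, 45.6 and 67.5 FPKM in Cas9 1 to 3 and 55 in Ctrl 3. The order of the Alg levels over these libraries was noticed after the values were seen, and the part of the cell mixture in them was not tested.

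**Figure D5:**
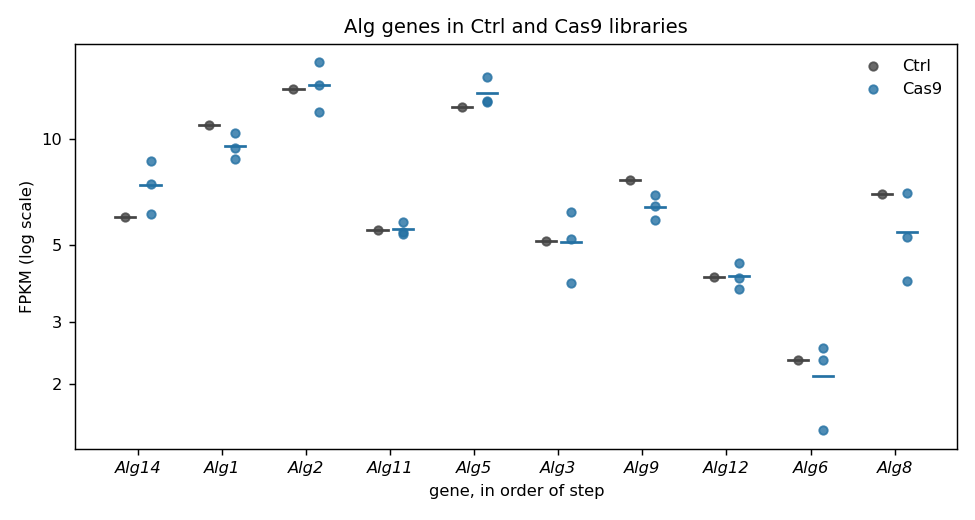
FPKM of each Alg gene (log axis) in Ctrl 3 and the 3 Cas9 libraries, grouped by step, with points for libraries and short lines for means (the single value for Ctrl). Alg8 spreads from 3.94 to 7.04 FPKM over the Cas9 libraries, and Alg2 and Alg5 stand highest.

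The order of the members also differed between the tables, which were normalised separately, so levels are not set across them. In Cas9, Alg2 (14.3 FPKM) and Alg5 (13.6 FPKM) led with overlapping ranges, Alg1 followed at 9.55 FPKM, and Alg11, Alg8 and Alg3 (5.53, 5.42 and 5.08 FPKM) overlapped their neighbours in the order. Ctrl 3 likewise held Alg2, Alg5 and Alg1 at the top, and Alg6 was lowest in every library of both tables. The median member lay at percentile 30.6 to 35.7 of the tested genes in Ctrl and Cas9 libraries, lower than the percentiles of the WT and GSH libraries. The 2 tables list different genes, and leukocyte markers separate them, and the part of either in this difference was not tested.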

How the data were processed

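Per the labels, RNA of 12 samples was sequenced, and 10 libraries were used. Labels and headers name no unit; from the values, the authors deposited FPKM, reads per gene divided by transcript length and library total, 1 value per gene and library. For the WT and GSH table, merged exon lengths of GENCODE M21 turned 98.4 to 98.5% of values into whole reads (within 0.05 read), and 29729 of 30190 genes were whole in every library. For Ctrl and Cas9 this held for 13.3 to 14.2% of values, so no reads were used there. Per the submitters' processing notes, HTSeq (0.6.0), HISAT2 (2), Bowtie2 (2.2.3) and mm8 were named without roles. Coordinates are printed only for RefSeq windows. Symbols matched 30190 of 30803 Ensembl identifiers.

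Tests used limma 3.58.1 in R 4.3.3 on log2(FPKM + 1), with a trend and no covariate, within each table. P-values were two-sided and Benjamini-Hochberg adjusted, with a threshold of 0.05. Genes entered when FPKM averaged at least 1 (12283 for GSH against WT, 11407 for Cas9 against Ctrl). This scale understates changes of low genes. The fit was also run on simulated data, with the same small spread beyond counting error set for both contrasts. That spread was not taken from these libraries, so no conclusion on the fits reported here is drawn from it. Members, lists and motifs were chosen with earlier results of these data known. Genes named were the members, the assembly genes outside them (1 is not reported here), at most 3 called genes with the largest difference per list, neighbours that overlap a member or start within 1000 bases on the opposite strand, and the 5 most alike profiles; others named with small counts or for their motif were chosen after their values were seen. Alternatives covered the pseudocount, the filter, scaling, each replicate left out, a replicate block, a term for secretory genes and voom on recovered reads.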

Additional observations from a re-analysis of the deposited data

How the results depend on the processing

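The members were picked on this contrast, so their values under the alternatives are a description only. The member median of -0.15 ran from -0.15 to -0.13 with one replicate left out. Its sign could not change there, as 6 of 10 members had every GSH library below every WT library. It moved by more than the spread only with mitochondrial genes left out of the total, to -0.21 (median of all genes then -0.033). Of 130 single member values under the alternative settings, 123 moved by less than the spread and 7 by more, and 0 of the non-overlapping ones changed sign. Much of this was fixed in advance. The filter and the replicate block leave a member's difference as it was, and leaving out a library cannot reverse non-overlapping groups. These counts are therefore no support. All 7 were moved by leaving mitochondrial genes out of the total (Alg1, Alg2, Alg3, Alg5, Alg8, Alg9 and Alg14). All genes called in GSH against WT numbered 4547, and 2998 to 3671 with one replicate left out (2998 without WT 1); 55.7% were higher, 49.2% with relative log expression scaling and 34.1% with mitochondrial genes left out. Of other pathway genes, 22 fell and 6 rose. With one replicate left out 13 to 18 fell and 1 to 3 rose, with no filter 13 and 3, with voom on recovered reads 26 and 6, and with mitochondrial genes left out 29 and 2. Oligosaccharyltransferase genes lower (10 as reported) ran from 7 to 9 with one replicate left out, genes with the ERSE letters from 7 to 10 (7 with no filter) and GPI anchor genes from 6 to 9. The cause of these moves was not tested. Within the libraries above the cut on secretory genes and within those below it, alternatives chosen after seeing the data, the member median was -0.14. Each of these fits leaves 1 library in a group, assumed to vary like the others. Nearly all calls over all genes ended in them, so no calls are counted there. Whether replicate numbers pair the samples cannot be settled from so few libraries. Deviations of same-numbered libraries correlated at 0.479, -0.107 and 0.209, and those of differently numbered ones at -0.491 to 0.393. With the replicate block 3867 genes were called, 18 pathway genes lower and 4 higher, and the member median was -0.15. No paired analysis was possible for Cas9 against Ctrl because the groups used share 1 number, and the single Ctrl library could not be left out; 0 genes passed there under each alternative.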

Other observations

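Synthesis of glycosylphosphatidylinositol (GPI) anchors draws on the same dolichol-phosphate mannose as the luminal Alg steps. Of 21 tested genes of that route, 10 fell (47.6%), 1 rose and 10 did not pass in limma's test of GSH against WT, with a median log2 difference of -0.13, beside 16.4% called lower over all tested genes. Pigf, which helps to attach the ethanolamine bridge, fell from 49.4 to 39.2 FPKM (log2 change -0.33, adjusted p = 0.00201), Pigw, an inositol acyltransferase, from 13.1 to 10.3 FPKM (-0.32, 0.00519), and Pigc, of the first enzyme of the route, from 5.57 to 4.32 FPKM (-0.30, 0.00289). Their calls held under each of the 13 alternative settings. The riser was Pigt, a subunit of the GPI transamidase, from 50.3 to 55.8 FPKM (log2 change 0.15, adjusted p = 0.026), which lost its call without WT 1 (0.0837), WT 3 (0.0726), GSH 2 (0.0647) or GSH 3 (0.0572) and with mitochondrial genes left out of the total (0.162), over a range of 0.009 to 0.162. Without WT 1, and without GSH 3, 6 genes of the list were called lower. The list was written with earlier results of these data known.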
